A study of Mus musculus with 8 samples.

Results

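The matrix metalloproteinases (MMP), the ADAM and ADAMTS proteases and the tissue inhibitors of metalloproteinases (TIMP) were followed in mouse pancreatic epithelial cancer cells whose culture was treated with an antibody against sonic hedgehog (SHH). Members were taken by symbol from the protein-coding genes of the count table, as Mmp, Adam or Adamts followed by a digit, or Timp1 to Timp4. This gave 79 of the 39179 genes listed, of which 23 were MMP, 33 ADAM, 19 ADAMTS and 4 TIMP genes. The libraries were polyA RNA from green fluorescent cancer cells that had shared a dish for 72 h with red fluorescent pancreatic stellate cells, in 0.5% dialyzed serum, and were then separated by flow sorting. In 1 arm, 4 cultures received 20 µg/mL of an SHH-neutralizing antibody, and in the other arm 4 cultures received no antibody. All 8 samples were iKRAS epithelial cancer cells of an FVB/B6 mix with the genotype label p48Cre tetO_LKrasG12D ROSA_rtTAL+ p53L+. The p48Cre driver is a Cre recombinase expressed in pancreatic progenitor and acinar cells, and tetO with rtTA is a doxycycline-controlled expression system. Whether doxycycline was present is not given in the sources used here, nor is a control antibody or the number of independent cell clones. SHH is a secreted hedgehog ligand, and the question is what its neutralization does to cancer cell transcripts in a culture shared with stellate cells.

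MMPs are zinc proteases that cut matrix proteins, and are either secreted or, as membrane-type MMPs, held at the cell surface. ADAMs are membrane proteases, and the catalytic ones release the outer parts of growth factors, receptors and adhesion molecules, a process called shedding. ADAMTS proteases are secreted and cut proteoglycans, procollagens and microfibril proteins. TIMPs bind the active site of these enzymes and block it. Most members are made as inactive proenzymes, so a transcript level is not a level of activity. In pancreatic tumours much of the matrix, and many of the proteases that act on it, come from stellate cells and other stromal cells.

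Library totals were 14953255 to 15733280 counts with the antibody and 10009711 to 14602784 counts without it, so every antibody library was the deeper. Libraries without antibody also varied more (biological coefficient of variation 7.01%, against 3.24% with the antibody). Distance between libraries of an arm was read as a chi-square over its degrees of freedom. Replicate 1 without antibody lay furthest from the rest of its arm, at 9.28, 10.8 and 11.3 from replicates 2, 3 and 4. Replicate 4 lay at 4.62 and 3.94 from replicates 2 and 3, which were 1.79 apart. Antibody libraries were at most 3.72 apart. Fits that leave out replicates 1 and 4 keep the 2 most alike libraries of that arm. Smaller p-values in those fits are therefore no added support. The labelled cell type was checked by its markers: 10 ductal and epithelial markers summed to 7728 to 8150 CPM (counts relative to TMM-scaled library totals) with the antibody and 7157 to 8203 CPM without. Most of this came from Krt7, Krt8, Krt18, Krt19, Cdh1 and Muc1. Epcam stood at 22.6 to 26.2 CPM with the antibody and 19.0 to 22.1 CPM without, and Cldn4 at 2.01 to 3.16 and 2.60 to 3.70 CPM. Cldn7 reached at most 0.658 CPM with the antibody and 1.03 CPM without. The 26 stellate and fibroblast markers summed to 1363 to 1458 CPM with the antibody and 1382 to 1528 CPM without, mostly from Vim and Fbln2. Of these markers 13 stayed under 1 CPM in every library, and the defining genes Dcn, Lum and Tcf21 had 0 counts in all 8, which allows up to 0.191 to 0.300 CPM per library (3 counts, counting error only). Fibrillar collagen transcripts were present: Col1a1 averaged 15.1 ± 3.86 CPM with the antibody and 11.7 ± 2.53 CPM without, Col1a2 15.1 ± 5.32 and 10.7 ± 5.72 CPM, and Col3a1 4.27 ± 1.73 and 2.61 ± 1.19 CPM (SD, n = 4 each). Of the 12 stellate markers tested, 9 had a log2 fold change above 0, and 3 were called at an adjusted p under 0.05 in edgeR's quasi-likelihood test, where 8.4% of all genes tested were called. Fbln2 and Pdgfra fell (log2 fold change -0.42 and -0.84) and Gas6 rose (0.42). The 3 collagen genes, at log2 fold changes of 0.36, 0.47 and 0.66, were not called (adjusted p = 0.169, 0.271 and 0.156). All 3 were called higher without a filter on low counts, without replicate 1 of the arm lacking antibody, and without its replicates 1 and 4. With the replicate number as a block Col1a2 and Col3a1 were called higher, and without antibody replicate 3 Col1a1 was. Gas6 was not called under that block, on the RPKM scales, without antibody replicate 1, 2 or 3, without replicate 1, 2 or 3 of the other arm, or without its replicates 1 and 4. Markers of leukocytes summed to 5.0 to 6.63 CPM with the antibody and 4.79 to 6.46 CPM without, those of endothelial cells to 12.9 to 14.5 and 11.7 to 13.3 CPM, and those of acinar cells to 3.09 to 4.06 and 2.96 to 5.91 CPM. Each sum came mostly from 1 gene, Cd68, Cdh5 and Cela1 in that order. Ptprc reached at most 0.579 CPM with the antibody and 0.548 CPM without, and Pecam1 0.193 and 0.234 CPM. The part of these cell types, and of the depth gap, in the differences below was not tested beyond the fits named there. In bulk RNA, fewer cells of a type and less RNA per cell cannot be told apart.

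Promoter sequences are shown for the membrane-type pair, of which Mmp15 rose and Mmp14 did not pass the test, and for Mmp13 and Timp1, which fell, so that the start regions can be set side by side. They come from RefSeq on GRCm38.p6 and run 5′ to 3′ on the + strand, 250 bases before to 50 after the annotated start. Capitals mark matches on either strand to 6 motifs searched by their letters alone.
Mmp15 chr8:95352046-95352345: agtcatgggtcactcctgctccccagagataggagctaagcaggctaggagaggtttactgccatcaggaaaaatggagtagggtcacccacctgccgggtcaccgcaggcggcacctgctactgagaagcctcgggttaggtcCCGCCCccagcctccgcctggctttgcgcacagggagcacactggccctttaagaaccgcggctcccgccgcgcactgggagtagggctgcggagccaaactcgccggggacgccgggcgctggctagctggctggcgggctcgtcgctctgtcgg
Mmp14 chr14:54431348-54431647: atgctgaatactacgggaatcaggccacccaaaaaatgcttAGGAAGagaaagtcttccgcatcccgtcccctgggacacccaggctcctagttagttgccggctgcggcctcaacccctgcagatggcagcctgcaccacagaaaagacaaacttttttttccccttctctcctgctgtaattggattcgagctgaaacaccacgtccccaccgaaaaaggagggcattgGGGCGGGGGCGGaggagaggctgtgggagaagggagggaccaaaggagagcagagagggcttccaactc
Mmp13 chr9:7272264-7272563: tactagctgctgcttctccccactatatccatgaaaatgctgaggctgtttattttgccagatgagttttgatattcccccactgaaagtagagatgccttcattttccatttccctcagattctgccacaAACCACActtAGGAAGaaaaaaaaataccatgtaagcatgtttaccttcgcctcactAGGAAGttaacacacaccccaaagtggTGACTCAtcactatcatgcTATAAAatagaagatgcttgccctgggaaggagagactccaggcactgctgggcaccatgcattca
Timp1 chrX:20869916-20870215: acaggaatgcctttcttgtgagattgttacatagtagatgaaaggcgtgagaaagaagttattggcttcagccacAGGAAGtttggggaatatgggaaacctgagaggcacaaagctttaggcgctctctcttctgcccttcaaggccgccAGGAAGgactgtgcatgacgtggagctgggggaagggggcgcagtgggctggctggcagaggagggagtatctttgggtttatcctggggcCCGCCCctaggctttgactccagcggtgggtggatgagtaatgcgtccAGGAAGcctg

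The Mmp13 window held the AP-1 letters TGANTCA at position -35 from the start, the TATA box letters TATAAA at -16, the RUNX letters AACCACA at -119 and the ETS letters AGGAAG at -109 and -62. These letters occur in 7.81%, 13.6%, 5.27% and 35.4% of the 32851 promoter windows of that table, in the order given. In the same order they were in 13, 14, 3 and 21 of the 49 members with a window there. Of the 17 tested members with a window, 2, 3, 1 and 6 held them. The Mmp15 window held 1 GC box (GGGCGG, in 35.7% of windows), read on the other strand at -106. The Mmp14 window held 2 GC boxes, at -19 and -13, which overlap in no base, and 1 ETS match at -209. The Timp1 window held ETS matches at -175, -99 and 41 and a GC box on the other strand at -8. The windows also differed in base composition: Mmp15 had 66% G and C with 22 CpG dinucleotides, Mmp14 56% with 10, Timp1 55% with 8 and Mmp13 43.7% with 1, where the median window has 52.7%. The GLI motif, searched as TGGGTGGTC, is in 0.253% of all windows and was found in 0 of the 49 members whose promoter is in the table. A match shows only that the letters occur, and no match only that they do not occur in the window.

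With the SHH antibody, transcripts of a membrane-type MMP, Mmp15, and of the sheddase Adam10 rose, while those of the collagenase Mmp13, the inhibitor Timp1 and the protease Adamts6 fell. Folds were 1.65 for Mmp15 and 1.12 for Adam10, and the falls were 1.54-fold for Mmp13, 1.28-fold for Timp1 and 1.7-fold for Adamts6. The calls were not equally firm. Adam10 was called in 3 of 8 fits without a single library. Adamts6 had 25 to 47 counts per library and lost its call when libraries were thinned to the smallest total. Of the 79 members, 29 had enough counts to be tested, and 5 of these passed an adjusted p under 0.05 in edgeR's quasi-likelihood test with Benjamini-Hochberg adjustment over all genes. Over all 13626 genes tested, 8.4% were called at that threshold. In the higher direction 2 members were called, where the background was 4.53%, and in the lower direction 3, where it was 3.87%. The arms did not overlap in CPM for 6 of the 29 members, against 14.3% of all genes tested; antibody libraries were the higher in 2 (background 7.71%) and the lower in 4 (background 6.56%). The median log2 fold change of the members was -0.03, beside -0.00 over all genes, and their median absolute log2 fold change was 0.11, beside 0.09.

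**Figure D1:**
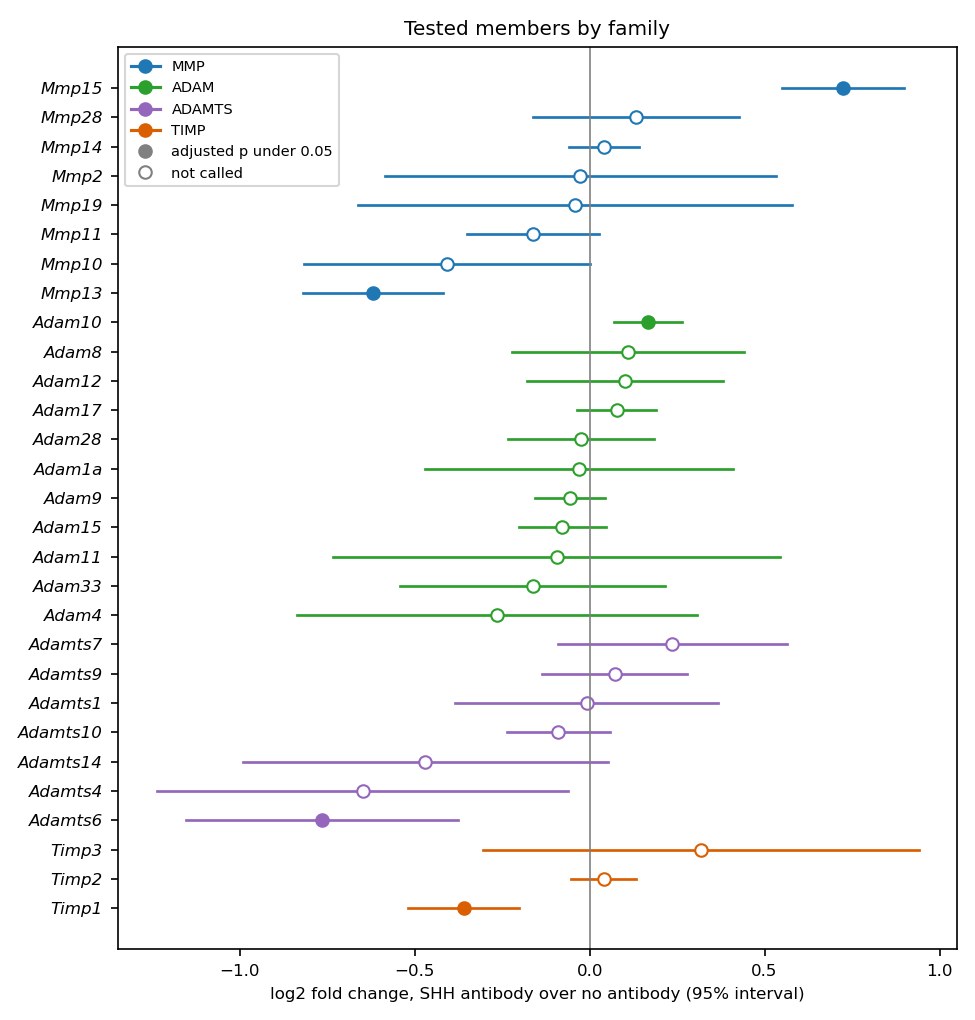
Log2 fold change (SHH antibody over no antibody) of the 29 tested members with its 95% interval, grouped by family; filled points passed an adjusted p under 0.05. Mmp15 and Adam10 lie above 0, Mmp13, Timp1 and Adamts6 below it, and 24 members were not called.

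Among the membrane-type MMPs, Mmp15 and Mmp14 were tested. Mmp15 encodes MT2-MMP, a transmembrane protease that can activate the MMP2 proenzyme (ENSMUSG00000031790, GRCm38 chromosome 8, 95352268 to 95374293, + strand). Its level was 26.2, 27.4, 26.2 and 27.4 CPM with the antibody and 17.6, 18.6, 15.3 and 13.8 CPM without. All 4 antibody libraries lay above all 4 others. The means were 26.8 ± 0.69 and 16.3 ± 2.18 CPM (SD, n = 4 each), a log2 fold change of 0.72 ± 0.08 (SE; edgeR adjusted p = 6.39e-06). The call held in all 19 other ways of processing tried, with log2 fold changes of 0.60 to 0.79.

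Mmp14 encodes MT1-MMP, the best studied membrane-type MMP, which cuts fibrillar collagen and activates the MMP2 proenzyme. It stood at 112, 111, 112 and 109 CPM with the antibody and 105, 112, 113 and 101 CPM without. The arms overlapped, and the log2 fold change was 0.04 ± 0.05 (fold interval 0.960 to 1.1; edgeR adjusted p = 0.683). Beside each 100 Mmp14 counts, the libraries held 23.4 to 25.2 Mmp15 counts with the antibody and 13.5 to 16.8 without. The other membrane-type genes, Mmp16, Mmp17, Mmp24 and Mmp25, reached at most 5 counts in any library and were not tested.

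Mmp13 encodes collagenase-3, a secreted enzyme that cuts fibrillar collagens (ENSMUSG00000050578, chromosome 9, 7272514 to 7283333, + strand). Its level was 37.4, 44.1, 43.0 and 44.4 CPM with the antibody and 81.1, 67.6, 59.6 and 51.6 CPM without. Each antibody library was below each library without antibody, and the spread was wider in the arm without. The means were 42.2 ± 3.29 and 65.0 ± 12.6 CPM (SD, n = 4 each), a log2 fold change of -0.62 ± 0.10 (SE; edgeR adjusted p = 0.000187). In the 8 fits without a single library it ranged from -0.72 to -0.49, and all 8 kept the call. Leaving out replicates 1 and 4 without antibody, the highest and the lowest of that arm for Mmp13, gave -0.59 (edgeR adjusted p = 8.68e-08). These 2 were picked by their spread in these data, so the smaller p is no added support.

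Mmp13 lies in a run of 10 Mmp genes on chromosome 9, between 7272514 and 7699585, and its neighbours were scarce in these cells. Besides Mmp13, only Mmp10 passed the filter on low counts. Mmp10 encodes stromelysin-2, a secreted protease with a wide range of matrix substrates. It stood at 1.93, 2.16, 1.84 and 2.75 CPM with the antibody and 3.35, 3.10, 2.90 and 2.26 CPM without. The arms overlapped in 1 library each, and the log2 fold change of -0.41 ± 0.20 was not called (edgeR adjusted p = 0.235). Mmp3, stromelysin-1, had 3 to 9 counts per library. Mmp1b, Mmp7, Mmp8 and Mmp20 had 0 counts in all libraries, and Mmp1a, Mmp12 and Mmp27 had 1 count in total each.

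None of the remaining 4 tested MMPs was called by edgeR, DESeq2 or limma voom, and 0 of them had an unadjusted p under 0.05. Mmp11, stromelysin-3, stood at 13.4, 14.9, 12.3 and 13.5 CPM with the antibody and 14.7, 16.7, 15.8 and 13.8 CPM without. Its arms overlapped, with a log2 fold change of -0.16 (edgeR adjusted p = 0.321). Mmp28, epilysin, averaged 8.26 ± 1.06 and 7.48 ± 1.73 CPM, Mmp19 0.93 ± 0.18 and 0.96 ± 0.27 CPM, and Mmp2 1.21 ± 0.32 and 1.24 ± 0.22 CPM, with the antibody and without (SD, n = 4 each). Of the gelatinases, which cut denatured collagen and type IV collagen, Mmp2 was thus near the filter and Mmp9 had 3 counts in all 8 libraries together. Mmp19, with 103 counts in total, overlaps Tmem198b on the opposite strand, which held 3307 counts. Tmem198b fell (log2 fold change -0.31, edgeR adjusted p = 0.00643), and its part in the Mmp19 counts was not tested.

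Timp1, an inhibitor of most secreted MMPs, fell (ENSMUSG00000001131, chromosome X, 20870166 to 20874735, + strand). Its level was 18.3, 18.2, 17.2 and 17.9 CPM with the antibody and 23.1, 24.5, 24.2 and 20.6 CPM without. The arms did not overlap. Means of 17.9 ± 0.52 and 23.1 ± 1.77 CPM (SD, n = 4 each) gave a log2 fold change of -0.36 ± 0.08 (SE; edgeR adjusted p = 0.00398), and all 19 alternatives kept the call. Timp1 lies inside Syn1, which runs on the opposite strand and held 635 counts beside 2201 for Timp1. Syn1 also fell, with 4.99 ± 0.78 CPM in the antibody arm and 6.88 ± 0.55 CPM in the arm without (log2 fold change -0.45, edgeR adjusted p = 0.0378). The kit kept the strand, but the strand setting of the counting is not given in the sources used here. Reads in sequence shared by these 2 genes therefore could not be assigned here. Only the gene spans were compared, and whether counted exons overlap was not tested.

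Timp2 was the most abundant TIMP transcript; its product both inhibits MMPs and takes part in MMP2 activation by MT1-MMP. It stood at 407, 390.1, 404 and 399 CPM with the antibody and 379.9, 399.7, 404 and 374 CPM without. The arms overlapped, with a log2 fold change of 0.04 ± 0.05 (fold interval 0.963 to 1.1; edgeR adjusted p = 0.671). Beside each 100 Timp2 counts there were 4.25 to 4.67 Timp1 counts with the antibody and 5.51 to 6.14 without. Timp3, which binds the matrix and also inhibits ADAM17 and aggrecanases, averaged 1.17 ± 0.27 and 0.96 ± 0.29 CPM and was not called (edgeR adjusted p = 0.594), and Timp4 had 0 counts in all libraries.

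**Figure D2:**
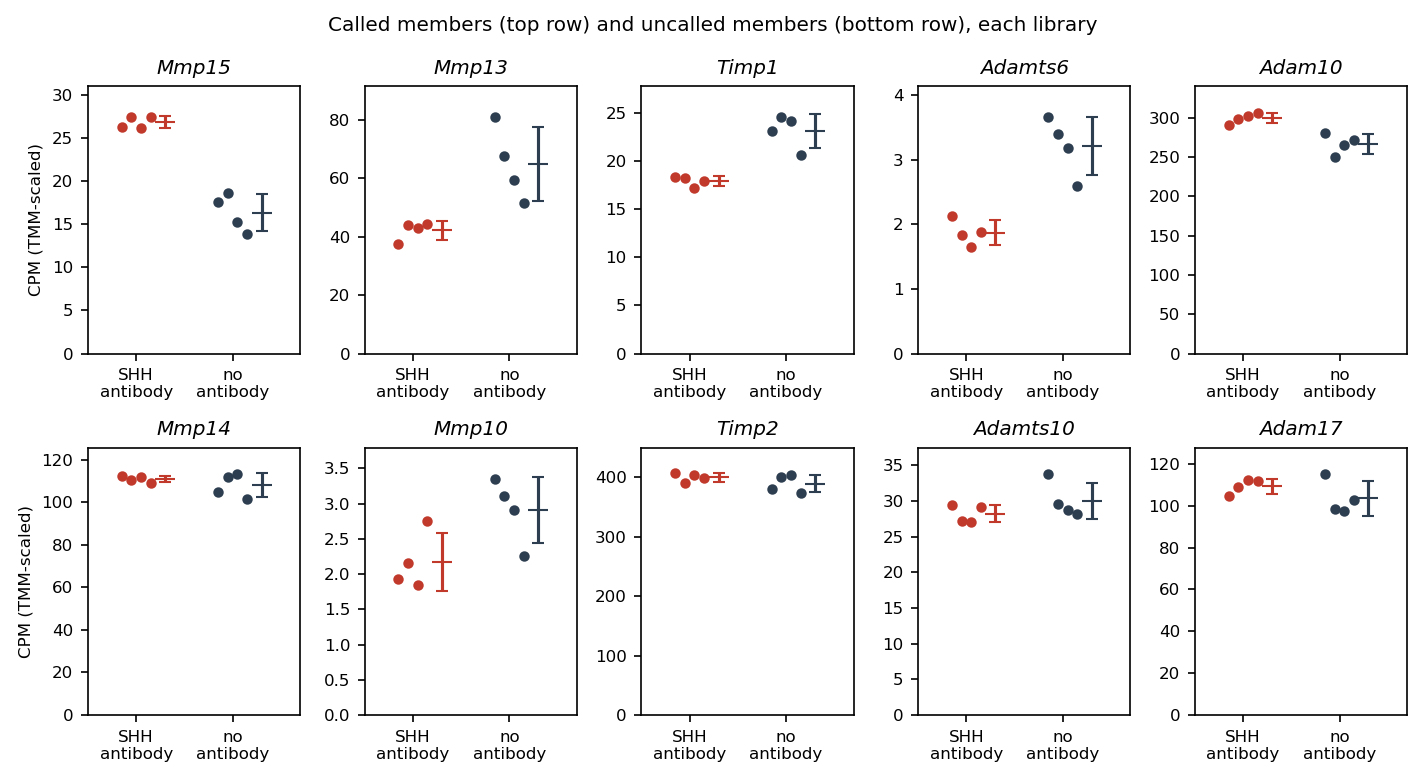
CPM of the 5 called members (top) and of 5 uncalled members, Mmp14, Mmp10, Timp2, Adamts10 and Adam17 (bottom), in each library, SHH antibody at the left and no antibody at the right of each panel, with the mean and SD of 4 libraries. The arms do not overlap for Mmp15, Mmp13, Timp1, Adamts6 and Adam10, and do overlap for the 5 uncalled members.

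Adam10 was the 1 ADAM called of 11 tested. Its product sheds Notch receptors, E-cadherin and several EGF-receptor ligands (ENSMUSG00000054693, chromosome 9, 70678997 to 70780229, + strand). It stood at 291, 298, 301 and 306 CPM with the antibody and 280.5, 249, 265 and 272 CPM without. The arms did not overlap but were close, the lowest antibody library being replicate 1 and the highest other library replicate 1. Means of 299 ± 6.38 and 267 ± 13.1 CPM (SD, n = 4 each) gave a log2 fold change of 0.17 ± 0.05 (SE; edgeR adjusted p = 0.0287). This call depended on single libraries: it was lost without antibody replicate 2, 3 or 4 (adjusted p = 0.0867, 0.0987 and 0.101) and without replicate 2 or 3 of the other arm (0.0978 and 0.0637). Without replicates 1 and 4 of the arm lacking antibody, picked by their spread in these data, the log2 fold change was 0.22 (edgeR adjusted p = 9.51e-05). That p-value is no added support for the call.

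Adam17 encodes TACE, the sheddase of TNF, TGF-alpha and amphiregulin. It stood at 104, 109, 112 and 112 CPM with the antibody and 115, 98.5, 97.4 and 103 CPM without. The arms overlapped and the log2 fold change of 0.08 ± 0.05 was not called (edgeR adjusted p = 0.453). It was called, at 0.16, only without replicates 1 and 4 of the arm lacking antibody (edgeR adjusted p = 0.0170). Those 2 libraries were picked by their spread in these data. Adam17 overlaps Iah1 on the opposite strand, which fell (log2 fold change -0.49, edgeR adjusted p = 0.000132).

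Adam9, a membrane protease with broad shedding activity in culture, stood at 584, 564, 574 and 581 CPM with the antibody and 635, 555, 602 and 604 CPM without. Adam15, a protease and integrin-binding protein, stood at 92.7, 89.4, 87.5 and 89.6 CPM with the antibody and 101, 104, 93.1 and 82.3 CPM without. Both overlapped between arms, with log2 fold changes of -0.06 and -0.08 (edgeR adjusted p = 0.542 and 0.495). The other 7 tested ADAMs were at lower levels and none was called by edgeR, DESeq2 or limma voom, 0 of them with an unadjusted p under 0.05. Among these, Adam28 averaged 12.9 ± 1.22 CPM with the antibody and 13.0 ± 1.56 CPM without, Adam8 5.43 ± 1.31 and 5.04 ± 0.42 CPM, and Adam12 5.34 ± 0.32 and 5.0 ± 0.70 CPM (SD, n = 4 each). Adam4 and Adam1a, known from testis, overlap more abundant genes on the same strand, Cox16 and Mapkapk5, so that the counting could split reads between them.

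Adamts6 was the 1 ADAMTS called of 7 tested; it is a close relative of Adamts10, whose product binds microfibrils (ENSMUSG00000046169, chromosome 13, 104287873 to 104494763, + strand). It was a low transcript, with 33, 29, 25 and 28 counts with the antibody and 47, 34, 34 and 38 counts without. Scaled, these were 2.12, 1.84, 1.65 and 1.88 CPM with the antibody and 3.66, 3.41, 3.18 and 2.60 CPM without. The arms did not overlap on the CPM scale. Its log2 fold change was -0.77 ± 0.19 (SE; edgeR adjusted p = 0.0123), and it was called in all 8 fits without a single library. The call was lost when all libraries were thinned to the smallest total (-0.63, edgeR adjusted p = 0.0653), and the log2 fold change on log2(RPKM + 1) was -0.26.

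Adamts4, an aggrecanase that cuts proteoglycans, stood at 0.772, 0.699, 0.724 and 0.940 CPM with the antibody and 1.01, 1.60, 1.41 and 1.03 CPM without. The arms did not overlap, but its log2 fold change of -0.65 ± 0.28 was not called (edgeR adjusted p = 0.178). Adamts14, a procollagen N-proteinase, stood at 1.42, 1.21, 1.51 and 2.42 CPM with the antibody and 2.18, 2.90, 1.41 and 2.53 CPM without, with overlapping arms (log2 fold change -0.47, edgeR adjusted p = 0.292).

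Adamts10 was the most abundant ADAMTS per length. It stood at 29.5, 27.2, 27.1 and 29.1 CPM with the antibody and 33.7, 29.5, 28.7 and 28.1 CPM without, with overlapping arms and a log2 fold change of -0.09 (edgeR adjusted p = 0.505). Adamts1 and Adamts9, which cut versican, averaged 4.31 ± 0.73 and 9.45 ± 0.14 CPM with the antibody, against 4.30 ± 1.17 and 9.0 ± 0.69 CPM without, and Adamts7 averaged 4.05 ± 0.62 and 3.43 ± 0.22 CPM. These 3 were not called.

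Levels of different genes were compared per length, as the authors' RPKM (counts per kilobase of gene, scaled by the library's total). Over 8 libraries, Adam9 was highest at a mean of 146 RPKM, then Timp2 at 101, Adam10 at 57.5, Mmp14 at 42.1 and Timp1 at 23.1, and in every library these 5 kept that order. Mmp13 (20.0 RPKM), Adam15 (15.0) and Adam17 (14.9) came next without separating from each other or, for Mmp13, from Timp1, followed by Mmp11 (5.59), Adamts10 (5.34) and Mmp15 (4.96). Mmp11 lay below Adam17 in every library, while Mmp11, Adamts10 and Mmp15 did not separate from the next gene in the order. The first 4 genes took 77.6% to 78.6% of the members' summed RPKM with the antibody and 74.2% to 77.4% without. The members as a whole took 0.176% to 0.180% of library counts with the antibody and 0.173% to 0.184% without, so the arms overlapped in the sum.

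**Figure D3:**
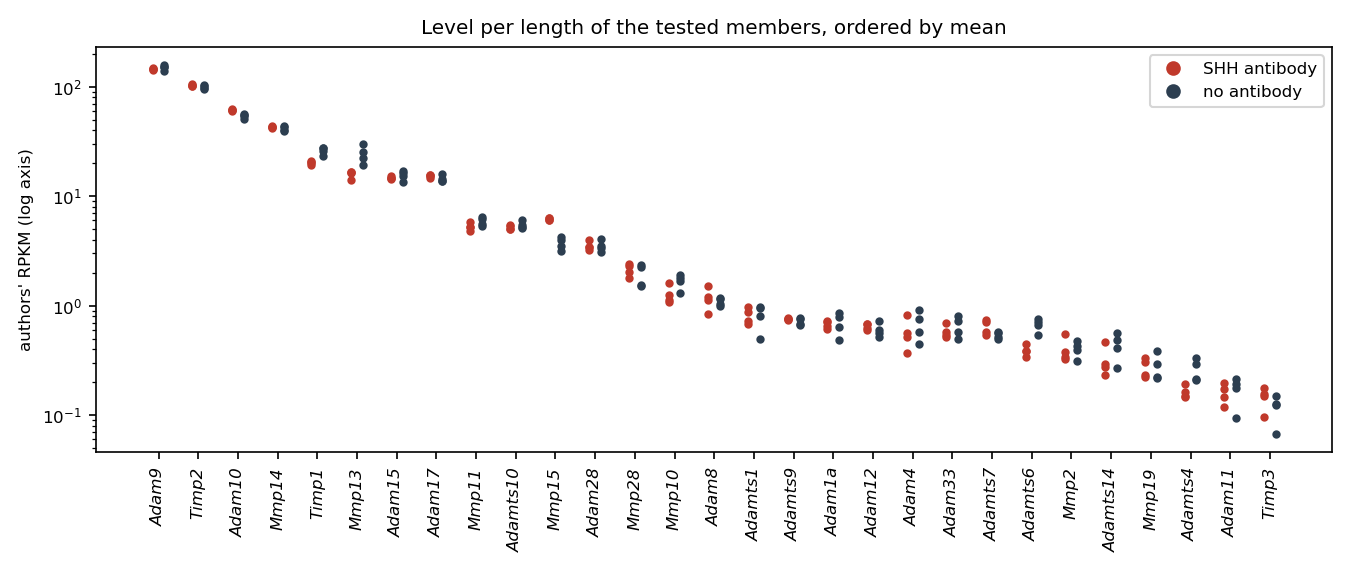
Authors' RPKM on a log axis of the tested members in each library, SHH antibody left of no antibody for each gene, ordered by mean level. Adam9, Timp2, Adam10 and Mmp14 are at the top, and the low end holds members near 1 CPM such as Mmp19, Adam11, Adamts4 and Timp3.

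Within the MMPs and the TIMPs the shares of several genes did not overlap between arms, while the family sums did. Summed MMP RPKM was 73.5 to 75.4 with the antibody and 71.5 to 84.4 without. Of this sum Mmp14 took 55.5% to 59.2% with the antibody and 47.1% to 54.7% without. Shares of a sum depend on each other, and Mmp14 itself was not called (log2 fold change 0.04, arms overlapping in CPM). Mmp13 took 19.2% to 21.9% with the antibody and 27.0% to 35.4% without, and Mmp15 8.15% to 8.36% with the antibody and 4.32% to 5.12% without. The share of Mmp11 overlapped, at 6.48% to 7.71% with the antibody and 6.65% to 7.77% without. Of summed TIMP RPKM, Timp1 took 15.7% to 17.0% with the antibody and 19.5% to 21.2% without. Among the ADAMs, the libraries held 269 to 279 Adam10 counts per 100 Adam17 counts with the antibody and 244 to 272 without, which overlapped. These shares and ratios are descriptions, with no test.

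The partners of these enzymes were read from 5 gene lists, each beside the 8.4% called over all genes. These lists were chosen with earlier results of these data known, so their shares called are descriptions and not an independent test. Of proteins shed by ADAM10 or ADAM17, 9 of 30 tested were called, 4 higher and 5 lower. Hbegf and Ereg, ligands of EGF receptors, fell, with 117.5 ± 10.8 and 88.4 ± 5.77 CPM with the antibody and 163.5 ± 9.45 and 126.7 ± 17.0 CPM without (log2 fold change -0.48 and -0.52; edgeR adjusted p = 1.33e-05 and 4.14e-05). The receptor tyrosine kinases Axl and Epha2 also fell (log2 fold change -0.33 and -0.34; edgeR adjusted p = 3.52e-05 and 0.000187). The other 5 called were named after their values were seen: Areg fell (-0.34), while Jag1 (0.28), Notch1 (0.29), Epcam (0.28) and Aplp2 (0.16) rose. Hbegf, Ereg, Axl, Epha2, Areg and Jag1 kept their calls in all 19 alternatives and Notch1 in all but log2(RPKM + 0.1), while Epcam and Aplp2 lost theirs when the libraries were thinned and without several single libraries: Epcam without antibody replicate 1, 3 or 4 or replicate 3 or 4 of the other arm, and Aplp2 without any antibody library or replicate 2 or 3 of the other arm.

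Among activators, inhibitors and clearance receptors of MMPs and TIMPs, 2 of 10 tested were called. Plat, tissue plasminogen activator, which generates plasmin, an activator of several MMP proenzymes, stood at 169 ± 4.66 CPM with the antibody and 237 ± 30.2 CPM without (log2 fold change -0.49, edgeR adjusted p = 2.91e-05). Lrp1, an endocytic receptor that clears proteases and their inhibitors, rose (0.19, edgeR adjusted p = 0.0127), but was not called without antibody replicate 2 or on either RPKM scale. Pcolce was not called as reported (edgeR adjusted p = 0.0604). It was called lower without a filter on low counts, after thinning, and without replicate 4 or replicates 1 and 4 of the arm lacking antibody. Of matrix substrates, 2 of 16 tested were called: Thbs1, thrombospondin-1, rose to 119 ± 2.30 CPM with the antibody, against 86.8 ± 6.08 CPM without (0.46, edgeR adjusted p = 4.33e-06), and Fn1, fibronectin, fell (-0.18, edgeR adjusted p = 0.0178). The Fn1 call was lost without antibody replicate 1, 2 or 3 or replicate 2 of the other arm. Of 11 other metalloproteinases tested, 2 were called lower: Mme, neprilysin (-0.25, edgeR adjusted p = 0.0413), and Mep1a, a meprin subunit (-0.28, edgeR adjusted p = 0.0477). DESeq2 called neither, and both calls were lost with the libraries thinned, with the replicate block, on the RPKM scales, and without antibody replicate 2, 3 or 4 or replicate 1, 2 or 3 of the other arm. Mme was also lost without antibody replicate 1, and Mep1a without a filter on low counts. Without replicate 1 of the arm lacking antibody the list held 2 genes called higher and 0 lower: Adamtsl4, an ADAMTS-like protein, and Bmp1, a procollagen C-proteinase. Of 11 tested genes of ADAM10 and ADAM17 maturation and trafficking, edgeR called 0, with 3 at an unadjusted p under 0.05, and DESeq2 and limma voom called 0. Without replicate 1 of the arm lacking antibody 2 of them were called higher, Pdia6, a disulfide isomerase, and Rhbdf1, an inactive rhomboid. Both were also called higher without replicates 1 and 4 of that arm, and Rhbdf1 without a filter on low counts.

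The 50 members that did not pass the filter are accounted for by counts. Of these, 21 had 0 counts in all libraries (5 MMP, 12 ADAM, 3 ADAMTS and 1 TIMP gene), many of them ADAMs known from testis. Another 29 had counts, and 3 of them reached 10 in a library: Adamts5 with a highest count of 13, Adam23 with 11 and Mmp23 with 10. Just inside the filter were Adam11, Mmp19, Adamts4 and Timp3, with 101, 103, 107 and 117 counts over 8 libraries, and just outside it Adamts5 and Mmp23, with 70 and 52.

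**Figure D4:**
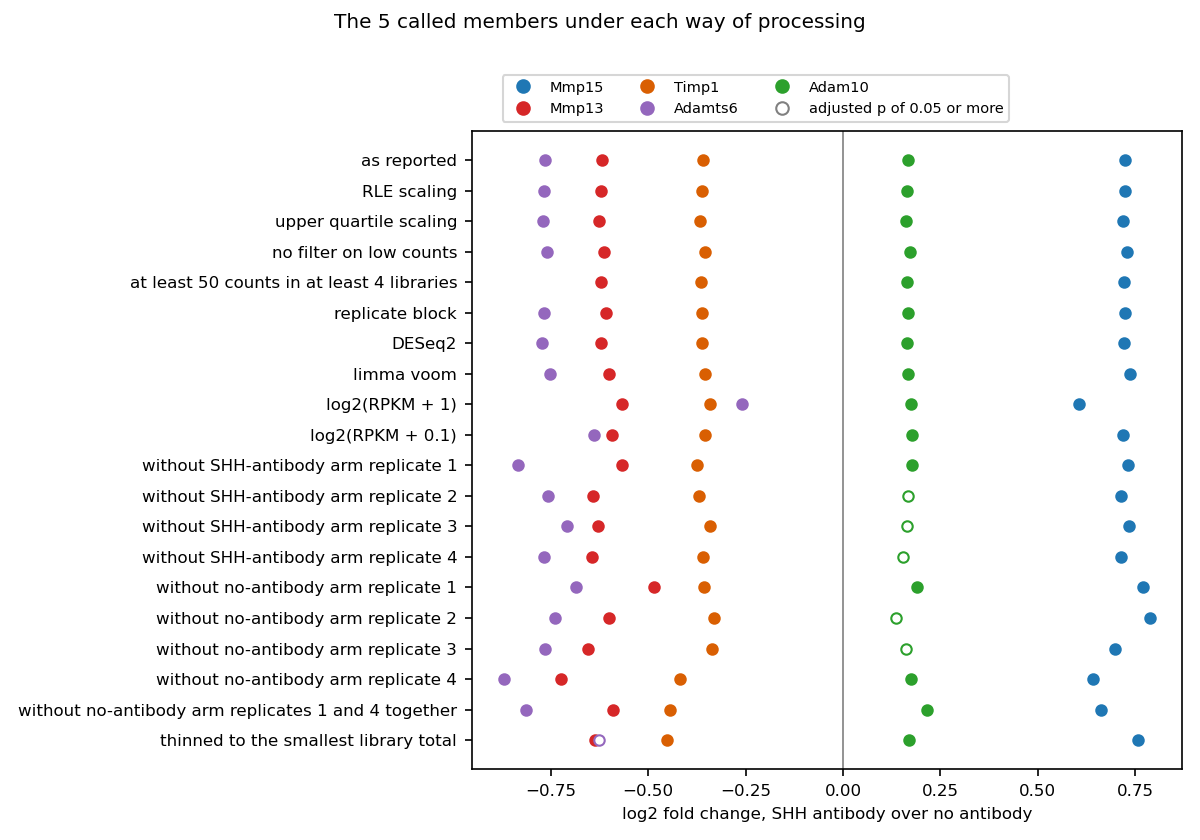
Log2 fold change (SHH antibody over no antibody) of the 5 called members as reported and under 19 alternatives; open points had an adjusted p of 0.05 or more. Mmp15, Mmp13 and Timp1 are filled throughout, Adam10 is open without any 1 of 5 libraries, and Adamts6 is open when libraries are thinned.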

How the data were processed

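PolyA libraries were made with a strand-specific kit and sequenced as paired reads, per the labels' protocols. CASAVA 1.8.2 and TopHat2 2.0.9, with GRCm38 (mm10), appear in the submitters' processing notes; counting tool, annotation and strand setting: not given in the sources used here. Raw counts per gene and RPKM values are as the authors deposited them, and each RPKM equals the count over 1 gene length and the library's total within 0.1% for all 13172 genes checked.

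The main test was the quasi-likelihood F test of edgeR 4.0.16 (R 4.3.3) on the counts, after filterByExpr and with TMM factors; the arm was the only term. P-values were adjusted by Benjamini and Hochberg's method over all 13626 genes, with a threshold of 0.05. Standard errors come from the F statistic, and CPM are counts over TMM-scaled library totals. The labels call the 4 samples of an arm biological. The procedure was also run on simulated counts, drawn with the same spread per gene in both arms. That run cannot speak to the wider spread of the arm without antibody. Alternatives used DESeq2 1.42.0, limma 3.58.1 (voom), other scalings and filters, RPKM on a log2 scale, a replicate block and left-out libraries; thinning was chosen after seeing the data.

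The members and gene lists were chosen with earlier results of these data known. Called members, the 10 with the highest mean RPKM and the 4 uncalled ones with the smallest p are given library by library. From each list, at most 4 called genes were taken, by p.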

Additional observations from a re-analysis of the deposited data

How the results depend on the processing

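Of 540 member values recomputed over 19 alternatives, 533 kept their side of the threshold. The call was lost in 6 (Adam10 in 5 fits, Adamts6 after thinning) and gained in 1 (Adam17), and 0 changed direction past the threshold. The 5 called members kept their sign in every alternative. Signs of some uncalled members changed, most often Adamts1 (10 of 19 alternatives), Mmp2 and Mmp19 (5 of 18 each). The number of members called was 4 to 6, and without single libraries those called higher numbered 1 to 2. Over all genes, 675 were called on log2(RPKM + 1), 670 on log2(RPKM + 0.1), 681 to 1475 without single libraries (681 without antibody replicate 2 and 697 without replicate 3) and 2271 without replicates 1 and 4 of the arm lacking antibody, against 1144 as reported; the cause was not tested. The filter of 50 counts in at least 4 libraries left Adamts6 untested.

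Replicate numbers did not pair the samples: the correlations of same-numbered samples were -0.02, -0.03, 0.01 and 0.00. With the replicate number as a block, 1005 genes and 5 members were called, the same 5 members; Mme and Mep1a were not. Depth limits the members near 1 CPM, whose intervals are wide.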
